A study of Mus musculus with 12 samples.

Results

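The 10 genes described here encode the epidermal growth factor (EGF) receptor, its ligands and their close partners: the ligands Egf, Tgfa, Areg, Ereg, Btc and Hbegf, the receptors Egfr, Erbb2 and Erbb3, and the receptor inhibitor Lrig1. They were selected by symbol from the 19012 gene symbols measured by poly(A) RNA-seq, and where a symbol had several transcripts the longest was taken. The study compared 3 tissue preparations of mouse small intestine (freshly isolated crypts, freshly isolated villi, and organoids cultured for 12 weeks), each from duodenum, jejunum and ileum. Crypts had 2 libraries per origin, numbered 1 and 2, and organoids and villi had 1. The organoids had been grown from isolated crypts by a published stem cell culture method, and whether they held cells other than epithelium was not tested. The labels give no strain, age or animal, and do not say that the libraries came from separate animals, so the p-values measure only the spread between these samples.

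The ligands of this family are made as membrane proteins and are released by shedding enzymes. Bound ligand makes the receptors pair and phosphorylate each other, which starts the RAS-MAPK and PI3K-AKT cascades. Egfr binds all 6 ligands named here, Erbb2 binds none and acts as the preferred partner of the others, and Erbb3 binds neuregulins and has little kinase activity of its own. In the intestine this signalling drives division of crypt cells, recombinant EGF is a standard ingredient of organoid medium, and Lrig1, which promotes the breakdown of the receptors, is also used as a marker of stem cells.

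Levels are given as RPKM, reads per kilobase of exon scaled by the depth of each library, which allows levels of different genes to be compared per length. Differences are on the log2(RPKM + 1) scale, with their standard error (SE) and a p-value from limma adjusted by the Benjamini-Hochberg method over all genes tested. A change was called at an adjusted p under 0.05. In the tissue comparisons the 3 origins served as replicates of a tissue and the 3 tissues as replicates of an origin.

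The marker genes of the labelled tissues were present in them. The summed level of the 10 measured enterocyte markers was 50488 to 99890.2 RPKM in villi, 788 to 24188 in crypts and 2770.3 to 4960.3 in organoids. Within this sum, 2010204N08Rik (Sis) was highest in organoids, at 121 to 454 RPKM, against 39.7 to 51.3 in villi and 2.30 to 108 in crypts. Fabp1 overlapped between organoids (266 to 1263 RPKM) and villi (137 to 2900). The other enterocyte markers were lower in every organoid library than in every villus library. The sum of the 6 stem cell markers was 11.4 to 34.8 RPKM in villi, 103 to 1180.04 in crypts and 532 to 705 in organoids. The crypt preparations differed by replicate number: the enterocyte sum was 788 to 1978 RPKM in the 3 libraries numbered 1 and 8504 to 24188 in those numbered 2. The stem cell sum went the other way, at 451 to 1180.04 RPKM in the libraries numbered 1 and 103 to 409 in those numbered 2. The sum of the 10 smooth muscle and fibroblast markers was highest in villi, at 25.9 to 69.1 RPKM, against 1.66 to 13.4 in crypts and 5.22 to 9.03 in organoids. Vim, which is part of it, was highest in organoids (4.87 to 7.77 RPKM, against 2.18 to 4.81 in villi and 0.463 to 3.06 in crypts). Col1a2, Col3a1 and Dcn were at 0 in all 3 organoid libraries, and Col3a1 also in all crypt libraries. The sum of the 11 immune cell markers overlapped between villi and crypts, at 190.4 to 275.5 RPKM in villi and 16.7 to 308 in crypts. Singly, Ptprc, Cd3e, Cd3g, Cd8a, Gzma, Gzmb, Itgax and Csf1r were higher in every villus library than in every crypt library. Cd3e, for example, was at 6.09 to 17.5 RPKM in villi and 0 to 0.240 in crypts. Cd68 was higher in every crypt library than in every villus library, and Cd74 and Lyzs (Lyz2) overlapped. In organoids the sum was 9.83 to 20.2 RPKM, with Cd3g, Cd8a, Gzmb and Itgax at 0 in all 3 libraries. In bulk RNA, fewer cells of a type and less RNA per cell cannot be told apart. How far these markers bear on the differences below was not tested.

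Hbegf, heparin-binding EGF-like growth factor (chr18:36664585-36675427 in mm9, minus strand), was the most abundant ligand in all 12 libraries. In crypts it stood at 364 and 124 RPKM in the duodenum, 275 and 150.5 in the jejunum and 199 and 131 in the ileum (libraries 1 and 2 each). Organoids had 20.3, 21.3 and 15.4 RPKM and villi 42.7, 20.2 and 21.1, in the order duodenum, jejunum, ileum. Every crypt library therefore lay above every organoid and villus library. Hbegf was lower in villi than in crypts by -2.81 (SE 0.36, adjusted p = 4.54e-05) and lower in organoids than in crypts by -3.28 (SE 0.36, adjusted p = 2.81e-05). Organoids and villi did not differ detectably (-0.47, 95% interval -1.36 to 0.43, adjusted p = 0.345). Within crypts, library 1 was above library 2 at all 3 origins, with log2 differences of library 2 from library 1 of -1.55 in the duodenum, -0.86 in the jejunum and -0.59 in the ileum, the same pairs in which library 2 had the higher enterocyte sum.

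**Figure D1:**
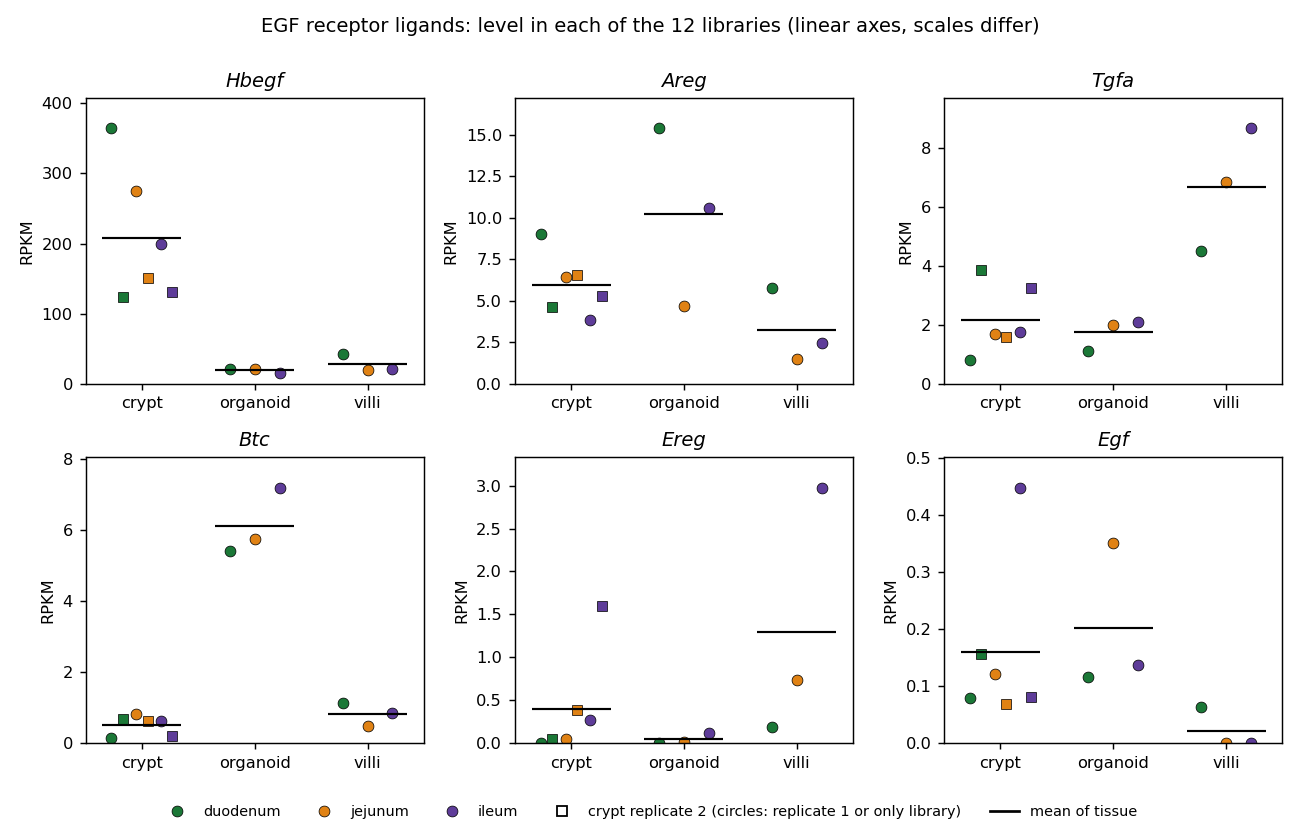
RPKM of the 6 ligands (y axis, linear, scales differ) in each of the 12 libraries, by tissue (x axis), coloured by origin, with squares for crypt replicate 2 and a line at the mean of a tissue. Hbegf stands apart in crypts, Btc in organoids and Tgfa in villi, while Egf stays under 0.5 RPKM in every library.

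Btc, betacellulin (chr5:91786286-91831938, minus strand), which also binds the neuregulin receptor Erbb4, was the ligand that set organoids apart. Organoids had 5.42, 5.75 and 7.19 RPKM from duodenum to ileum. Crypts had 0.136 and 0.683 in the duodenum, 0.820 and 0.619 in the jejunum and 0.640 and 0.209 in the ileum, and villi had 1.15, 0.475 and 0.856. The lowest organoid value was thus well above the highest value of the other 9 libraries, while crypts and villi overlapped. Btc was higher in organoids than in crypts by 2.24 (SE 0.21, adjusted p = 1.25e-05) and higher in organoids than in villi by 1.97 (SE 0.24, adjusted p = 1.98e-05). Villi and crypts did not differ detectably (0.27, 95% interval -0.17 to 0.72, adjusted p = 0.284). At these levels 2 to 20 reads lay behind each crypt value and 164 to 299 behind each organoid value.

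Tgfa, transforming growth factor alpha (chr6:86145409-86225150, plus strand), was higher in villi than in both other tissues. The villus libraries had 4.51, 6.87 and 8.68 RPKM from duodenum to ileum. Crypts had 0.805 and 3.88 in the duodenum, 1.70 and 1.58 in the jejunum and 1.75 and 3.25 in the ileum, and organoids had 1.13, 2.01 and 2.12. All villus libraries lay above all others, while crypts and organoids overlapped. Villi exceeded crypts by 1.32 (SE 0.29, adjusted p = 0.00231), and organoids were below villi by -1.47 (SE 0.34, adjusted p = 0.00227). The difference of organoids from crypts was -0.14 (95% interval -0.78 to 0.50, adjusted p = 0.715).

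Ereg, epiregulin (chr5:91503642-91522674, plus strand), and Areg, amphiregulin (chr5:91568640-91577457, plus strand), moved in opposite directions between villi and organoids. Ereg was low throughout, at 0.185, 0.736 and 2.97 RPKM in villi from duodenum to ileum and at 0, 0.0130 and 0.123 in organoids. Crypts had 0 and 0.0513 in the duodenum, 0.0554 and 0.392 in the jejunum and 0.270 and 1.6 in the ileum. The count of 0 allows up to 0.138 RPKM in the first duodenal crypt library and 0.067 in the duodenal organoids. In each tissue the ileum held the highest library, and crypts overlapped with both other tissues. Ereg was called higher in villi than in crypts (0.62, SE 0.24, adjusted p = 0.0453) and lower in organoids than in villi (-0.95, SE 0.28, adjusted p = 0.00968). The first call was lost in 9 of 22 alternative settings, with an adjusted p of 0.347 without the ileal villi, and the other in 2, with 0.0753 without the ileal organoids and 0.0715 without the ileal villi.

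Areg stood at 15.4, 4.67 and 10.6 RPKM in organoids from duodenum to ileum and at 5.80, 1.498 and 2.48 in villi. Crypts ranged from 3.82 to 9.02 RPKM with a median of 5.84. In organoids the jejunum was the low library, and its value lay below that of the duodenal villi, so the groups overlapped. Areg was higher in organoids than in villi by 1.396 (SE 0.37, adjusted p = 0.00541). It was below crypts in villi by -0.80 (SE 0.32), which missed the threshold (adjusted p = 0.0523) and passed it with the crypt replicate number as a block (adjusted p = 0.0403). Organoids and crypts differed by 0.60 (95% interval -0.094 to 1.29, adjusted p = 0.141).

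Egf itself (chr3:129380495-129458233, minus strand) was close to the limit of detection. Its 6 crypt libraries ranged from 0.0683 to 0.447 RPKM (2 to 19 reads), and the organoids had 0.117, 0.351 and 0.138. In villi it was at 0.0643 RPKM in the duodenum and at 0 reads in the jejunum and ileum, where a count of 0 allows up to 0.0493 and 0.0521 RPKM. These limits cover counting error only. Egf did not pass the filter on low values for the tissue and origin comparisons and was not tested there. EGF protein, in a medium or in tissue, was not measured.

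Ereg, Areg and Btc lie within 328 kb on chromosome 5 (chr5:91503642-91831938 in mm9), yet their highest libraries were the ileal villi, the duodenal organoids and the ileal organoids. Across the 9 means of tissue and origin, the Pearson correlation of log2(RPKM + 1) was -0.67 for Ereg with Areg, 0.60 for Areg with Btc and -0.47 for Ereg with Btc, as descriptions over groups that share tissue and depth. The sequences before the start sites of Areg and Btc are shown because these genes are the ligands most raised in organoids relative to villi. They are the 250 bases 5′ of the annotated start, from RefSeq in GRCm38.p6 (a later build than the mm9 of the measurements), read 5′ to 3′ on the gene's strand, chr5:91139349-91139598 on the plus strand for Areg and chr5:91402995-91403244 on the minus strand for Btc. Capitals mark matches on either strand to the letters searched.
Areg: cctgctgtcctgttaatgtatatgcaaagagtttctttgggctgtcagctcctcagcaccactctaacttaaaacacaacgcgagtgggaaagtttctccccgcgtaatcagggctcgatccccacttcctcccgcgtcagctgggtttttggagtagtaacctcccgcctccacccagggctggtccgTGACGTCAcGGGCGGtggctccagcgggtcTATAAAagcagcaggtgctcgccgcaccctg
Btc: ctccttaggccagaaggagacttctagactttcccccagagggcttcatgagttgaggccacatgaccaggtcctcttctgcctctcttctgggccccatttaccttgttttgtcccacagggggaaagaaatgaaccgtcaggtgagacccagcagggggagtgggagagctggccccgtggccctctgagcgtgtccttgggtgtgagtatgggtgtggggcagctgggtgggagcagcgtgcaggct
The Areg window held a cyclic AMP response element (TGACGTCA, first base 61 before the start), a GC box (GGGCGG, 52 before) and a TATA box (TATAAA, 31 before). The Btc window held none of these, and neither window held an AP-1 site (TGANTCA) or a TCF/LEF site (CTTTGAT). Of 32851 promoters of the same length, 1.5% held TGACGTCA, 32.7% GGGCGG, 12.4% TATAAA, 6.7% TGANTCA and 3.2% CTTTGAT. None of the searched letters overlap one another in the windows shown. RefSeq windows were found for 7 of the 10 genes, with 2 GC boxes each in Tgfa and Lrig1, 1 in Egfr and none in Erbb2.

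The make-up of the 6 ligands followed from these levels. Their summed level was 134 to 374 RPKM in crypts, 34.1 to 42.4 in organoids and 29.8 to 54.4 in villi, so crypts lay above both. Hbegf made up 92.7 to 97.3% of that sum in crypts, 43.2 to 62.5% in organoids and 58.5 to 78.5% in villi. Btc took 12.8 to 20.2% in organoids and at most 2.37% elsewhere, and Tgfa took 8.29 to 24.1% in villi and at most 5.96% elsewhere. Areg took 13.7 to 36.3% in organoids, 5.03 to 10.6% in villi and 1.86 to 4.12% in crypts. These shares describe RNA and are given without a test.

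**Figure D2:**
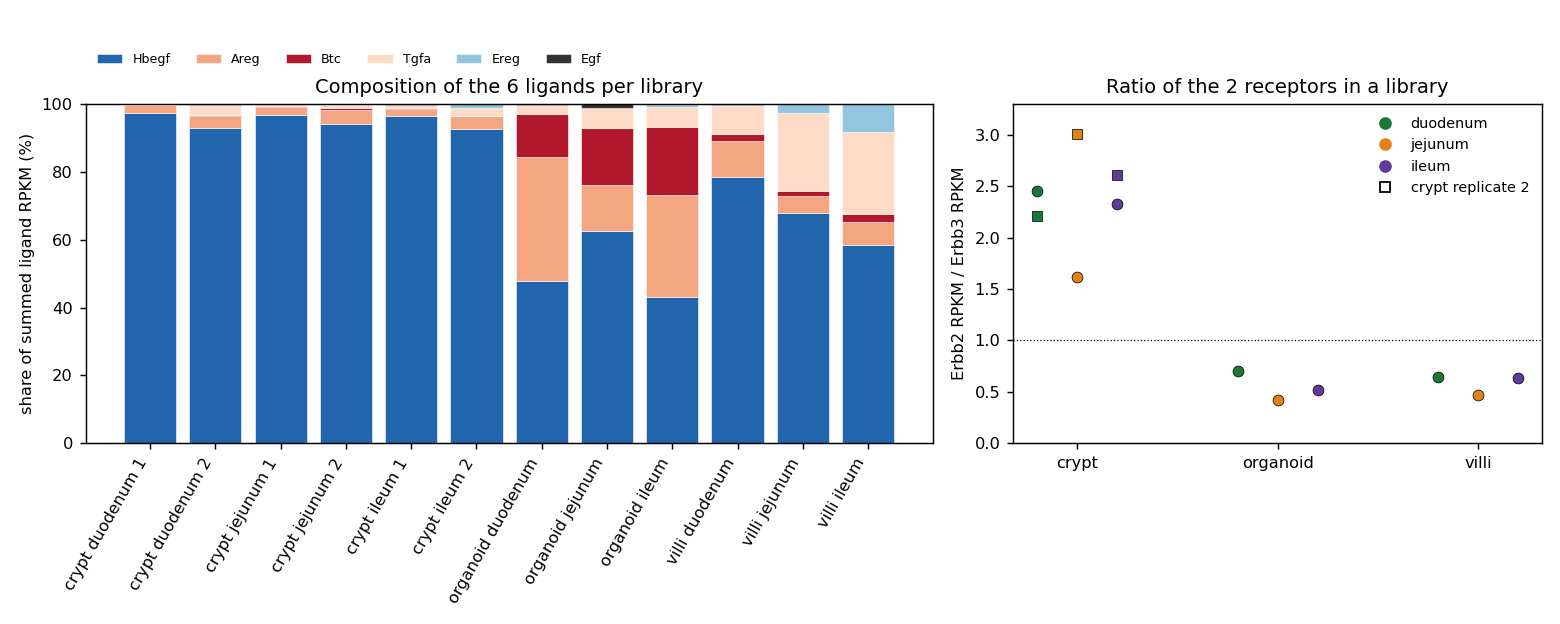
Left, share of each ligand in the summed RPKM of the 6 ligands (y axis, percent) for each library (x axis). Right, ratio of Erbb2 to Erbb3 RPKM (y axis) by tissue (x axis), 1 point per library: all 6 crypt libraries lie above 1, and all organoid and villus libraries lie below it.

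Of the receptors, Egfr (chr11:16652205-16813909, plus strand) had the smallest differences in all 3 tissue comparisons. Crypts had 2.70 and 3.97 RPKM in the duodenum, 2.58 and 1.76 in the jejunum and 2.29 and 1.37 in the ileum. Organoids had 2.26, 2.77 and 2.45 and villi 2.46, 2.38 and 1.397 from duodenum to ileum. All 3 tissues overlapped. The difference was -0.14 for villi against crypts (95% interval -0.61 to 0.33, adjusted p = 0.608), 0.057 for organoids against crypts (-0.41 to 0.53, adjusted p = 0.846) and 0.20 for organoids against villi (-0.35 to 0.74, adjusted p = 0.516). The sign of the 3 estimates depended on the scaling or on the libraries used, so no direction is given. Egfr is listed with 2 transcripts, of 5965 and 2678 exon bases. The RPKM ratio of the shorter to the longer was 0.873 to 1.79 with a median of 1.17, and reads in their shared exons cannot be assigned to either.

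Erbb2, the receptor without a ligand of its own (chr11:98273797-98299029, plus strand), was low in organoids. Crypts had 26.9 and 22.8 RPKM in the duodenum, 27.9 and 31.0 in the jejunum and 26.4 and 35.5 in the ileum. Villi had 32.8, 44.4 and 51.7 and organoids 5.75, 7.36 and 4.21 from duodenum to ileum. Every organoid library lay below every other library, and crypts and villi overlapped. Erbb2 was lower in organoids than in crypts by -2.13 (SE 0.24, adjusted p = 3e-05) and lower than in villi by -2.70 (SE 0.27, adjusted p = 6.1e-06). Villi lay above crypts by 0.57 (SE 0.24), which missed the threshold (adjusted p = 0.0583) and passed it with the replicate block (adjusted p = 0.0307).

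Erbb3, the partner that couples strongly to PI3K (chr10:128006423-128026556, minus strand), was high in villi, at 50.9, 95.7 and 81.2 RPKM from duodenum to ileum. Crypts had 10.95 and 10.3 in the duodenum, 17.3 and 10.3 in the jejunum and 11.3 and 13.6 in the ileum, and organoids had 8.20, 17.4 and 8.18. All villus libraries lay above the other 9, and crypts and organoids overlapped. Villi exceeded crypts by 2.51 (SE 0.25, adjusted p = 9.03e-06), and organoids were below villi by -2.68 (SE 0.29, adjusted p = 9.31e-06). Organoids and crypts differed by -0.18 (95% interval -0.72 to 0.37, adjusted p = 0.586). The ratio of Erbb2 to Erbb3 RPKM was 1.61 to 3.01 in crypts, 0.423 to 0.701 in organoids and 0.464 to 0.645 in villi, a description chosen after the values were seen. In organoids the low ratio went with low Erbb2, and in villi with high Erbb3.

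**Figure D3:**
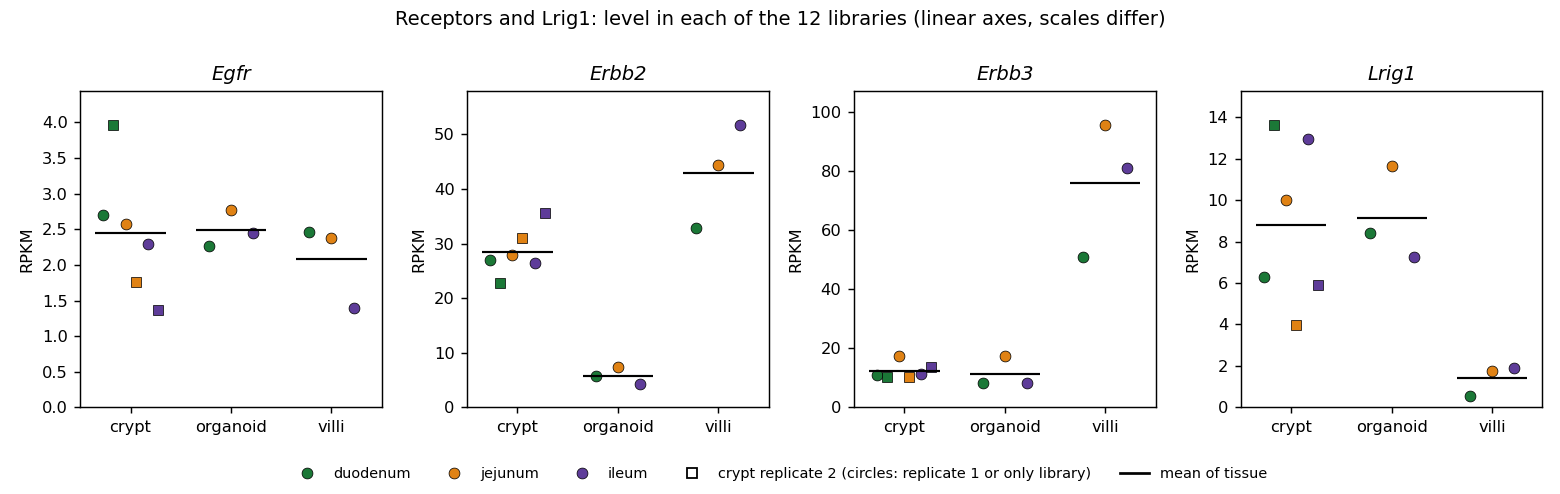
RPKM of the 3 receptors and Lrig1 (y axis, linear, scales differ) in each of the 12 libraries, by tissue (x axis), coloured by origin, with squares for crypt replicate 2 and a line at the mean of a tissue. Erbb2 is lowest in organoids, Erbb3 is highest in villi and Lrig1 is lowest in villi, while Egfr overlaps across tissues.

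Lrig1 (chr6:94554522-94650138, minus strand) was low in villi, at 0.569, 1.78 and 1.89 RPKM from duodenum to ileum. Crypts had 6.27 and 13.6 in the duodenum, 10.02 and 3.98 in the jejunum and 12.9 and 5.90 in the ileum, and organoids had 8.42, 11.7 and 7.26. Every villus library lay below the other 9, and crypts and organoids overlapped. Lrig1 was lower in villi than in crypts by -1.96 (SE 0.37, adjusted p = 0.000734) and higher in organoids than in villi by 2.10 (SE 0.42, adjusted p = 0.00088). Organoids and crypts differed by 0.13 (95% interval -0.66 to 0.93, adjusted p = 0.786). The stem cell marker sum was likewise lower in all villus libraries than in the other 9. Singly, this held for each of its genes except Axin2, which overlapped between villi and both other tissues.

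Counted together, 5 of the 9 genes tested were called between villi and crypts, where 52.8% of the 11825 genes were called. Of the 5, 3 were higher and 2 lower in villi, beside 20.3% and 32.5% of all genes. With the replicate block 7 were called, beside 59.5% of all genes, 4 of them higher and 3 lower, beside 23.6% and 35.9%. Between organoids and crypts 3 of 9 were called, beside 47.4% of all genes, 1 higher (23.3%) and 2 lower (24%) in organoids. Between organoids and villi 7 of 9 were called, beside 61.6%, 3 higher (36%) and 4 lower (25.6%) in organoids. The libraries of the 2 tissues did not overlap for 4 of the 9 genes in villi against crypts, beside 48.2% of all genes, for 3 in organoids against crypts, beside 38.2%, and for 6 in organoids against villi, beside 70.5%. None of these counts is read as particular to the members. The median of all genes was -0.19 for villi against crypts and moved to 0.021 when the values were scaled by median-ratio size factors, which turned 2402 higher and 3845 lower genes into 3658 and 3010. For organoids against villi it moved from 0.21 to -0.003, and 4257 higher and 3025 lower genes became 3695 and 3858. Of the members, Egfr alone changed sign under these scalings in either comparison. The 3 comparisons share their libraries and are not independent.

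**Figure D4:**
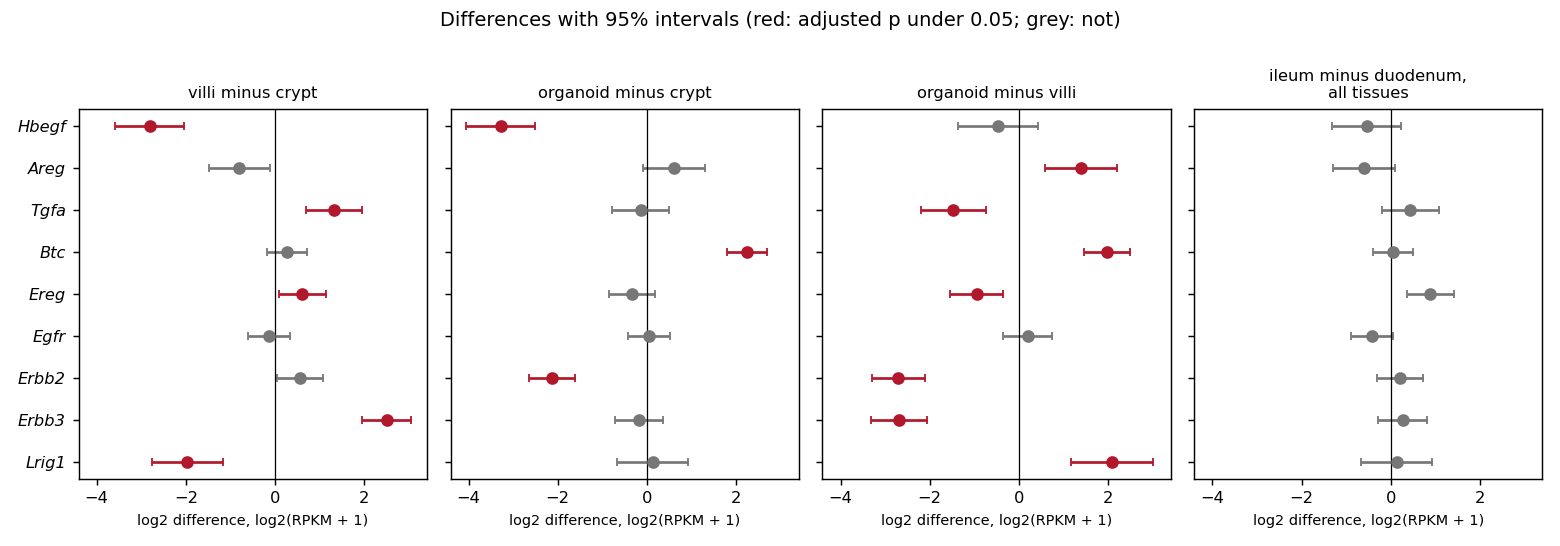
Log2 difference, log2(RPKM + 1) (x axis), with 95% intervals for the 9 genes tested (y axis) in 3 tissue comparisons and in the ileum against the duodenum, red where the adjusted p was under 0.05. Hbegf lies at -2.81 and -3.28 against crypts, Btc at 2.24 in organoids and Erbb3 at 2.51 in villi, and no gene was called in the ileum against the duodenum.

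Along the intestine, the question was whether the members differ between duodenum, jejunum and ileum, and whether organoids keep such a difference. Ereg had the clearest gradient by level: the mean of the 4 libraries of an origin was 1.24 RPKM in the ileum and 0.0590 in the duodenum. Over all tissues it was higher in the ileum than in the duodenum by 0.89 (SE 0.24), which missed the threshold (adjusted p = 0.136) and passed it with the replicate block (adjusted p = 0.0366). None of the 9 genes was called in that comparison, beside 0.609% of all genes, and Ereg was the 1 gene with an unadjusted p under 0.05 and the 1 called by limma-voom. The count was 1 with the block, beside 2.55%. Without the first ileal crypt library Ereg was also called (adjusted p = 0.0443). The other 8 genes had adjusted p-values of at least 0.679.

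Between jejunum and duodenum no member was called by limma or by limma-voom, and neither was any of the 11825 genes (0% called, 343 with an unadjusted p under 0.05, 6 with limma-voom on recovered reads). Erbb3 at 0.63 (SE 0.25) and Areg at -0.74 (SE 0.32) were the 2 members with an unadjusted p under 0.05, and both had an adjusted p of 0.998. Between ileum and jejunum no member was called by either, beside 0.0423% of all genes, and Ereg, the 1 member with an unadjusted p under 0.05, differed by 0.63 (SE 0.24, adjusted p = 0.921). In the crypt libraries alone, no member was called by limma or limma-voom between ileum and duodenum, beside 0.036% of 11123 genes, and Ereg alone had an unadjusted p under 0.05 (0.048). The 2 ileal crypt libraries lay above both duodenal ones for Ereg (0.83, SE 0.34) and Erbb3 (0.21, SE 0.39) and below both for Egfr (-0.62, SE 0.35), each with an adjusted p of 1, where 22.4% of all genes did not overlap in one direction or the other.

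Whether the ileum-duodenum difference itself differs between tissues was tested with single organoid and villus libraries, assumed to vary like crypts. All 10 genes could be tested here. No member was called, and none of 12740 genes was (0%, with 333 genes at an unadjusted p under 0.05 for organoids against crypts, 463 for villi against crypts, and 0 by limma-voom for both). For Ereg the difference of differences was -0.66 (95% interval -2.16 to 0.84) in organoids and 0.92 (-0.58 to 2.42) in villi. These intervals are wide, and the lack of a call does not show that the tissues share a gradient.

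In the order of the 9 groups by mean RPKM, Hbegf had the 3 crypt groups first and Erbb3 the 3 villus groups, and Btc had the 3 organoid groups first. For Hbegf the crypt groups overlapped with each other and stood apart from the duodenal villi, the next group. Lrig1 had the 3 villus groups last, apart from the jejunal crypts above them, while the 6 other groups ranged from 7.001 to 11.7 RPKM. For Egfr the 9 groups ran from 3.34 RPKM in duodenal crypts to 1.397 in ileal villi, and every neighbouring pair that included a replicated group overlapped.

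Among 6360 genes with a mean of at least 5 RPKM, those whose pattern over the 9 group means was most like that of a member were listed as a description. Hbegf was most like Setd8 (current symbol Kmt5a, r = 0.99) and Pdap1 (0.99), Erbb2 like Pxn (0.998) and Arhgef19 (0.996), and Erbb3 like Crim1 (0.99) and Pfkfb4 (0.99). Lrig1 was most like Lbr (0.99) and Elp3 (0.99), Btc like Gsta3 (0.98) and 5033414D02Rik (Plgrkt, 0.98), and Tgfa like Anxa11 (0.98) and Ctnnb1 (0.98). Areg was most like Cox6b1 (0.97) and 2310016M24Rik (Cox14, 0.96), and Ereg like Dfna5h (Gsdme, 0.97) and 4930504E06Rik (Mindy1, 0.97). The closest genes to Egfr were less alike, Pigr (0.85) and Ptpn18 (0.84).

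Of the 5 other ligands and receptors of the family that were measured, 4 were near 0 and 1, Nrg4, was not (Nrg2, on the same list, was not analysed here). Nrg4, a neuregulin that binds Erbb4, ranged from 1.39 to 10.1 RPKM in crypts, from 2.01 to 7.72 in organoids and from 2.97 to 3.12 in villi, and passed no test between tissues. Epgn (epigen), Nrg1 and Nrg3 stayed at or under 0.127 RPKM in every library. Erbb4, the fourth receptor, is listed at 0 in all 12.

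Of 8 genes involved in ligand shedding, 1 was higher and 1 lower in villi than in crypts, where 20.3% of all genes were higher and 32.5% lower. Adam15 was higher (0.66, adjusted p = 0.0322) and Rhbdf1 lower (-0.90, adjusted p = 0.0124), with a list median of 0.18 beside -0.19 over all genes. In organoids against crypts 3 were lower and none higher, beside 24% and 23.3% of all genes, with a median of -0.11 beside 0.003: the rhomboid protease Rhbdl2 (-1.59), Rhbdf2, an inactive rhomboid that brings the sheddase Adam17 to the cell surface (-1.396), and Adam15 (-1.16). The sheddases Adam10 and Adam17, named here after their values were seen, were not called in either comparison.

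Of 14 feedback inhibitors of the receptors and of the ERK kinases, 6 were higher and 3 lower in villi than in crypts, where 20.3% of all genes were higher and 32.5% lower, with a median of -0.035 beside -0.19 over all genes. Dusp6, a phosphatase of ERK, ranged from 35.1 to 70.5 RPKM in villi, from 1.84 to 5.81 in crypts and from 12.2 to 15.8 in organoids, so the tissues did not overlap. It was 3.54 (SE 0.34, adjusted p = 6.41e-06) above crypts in villi and 1.79 (SE 0.34, adjusted p = 0.00094) above crypts in organoids. Dusp5 (1.79) and the receptor inhibitor Errfi1 (1.58) were also higher in villi. In organoids against crypts 6 were higher and 2 lower, beside 23.3% and 24% of all genes, with a median of 0.28 beside 0.003, Spred1 at 1.45 and Spry2 at -1.17 among them.

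Of 12 response genes of ERK, 9 were lower and 2 higher in villi than in crypts, where 32.5% of all genes were lower and 20.3% higher, with a median of -1.37 beside -0.19 over all genes. The transcription factor Egr1 ranged from 3.20 to 5.59 RPKM in villi, from 118 to 190.5 in crypts and from 64.4 to 124 in organoids, and was -4.85 (SE 0.30, adjusted p = 8.27e-07) below crypts in villi. Cyclin D1 (Ccnd1) was lower by -3.12, while Dusp6, which is on both lists, was higher. In organoids against crypts 3 were higher and 5 lower, beside 23.3% and 24% of all genes, with a median of -0.25 beside 0.003, among them Etv4 (1.33) and Fosl1 (-1.39). In organoids against villi 8 were higher and 2 lower, beside 36% and 25.6% of all genes, with a median of 0.92 beside 0.21, led by Egr1 (3.94), Myc (3.65) and Etv4 (2.73).

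**Figure D5:**
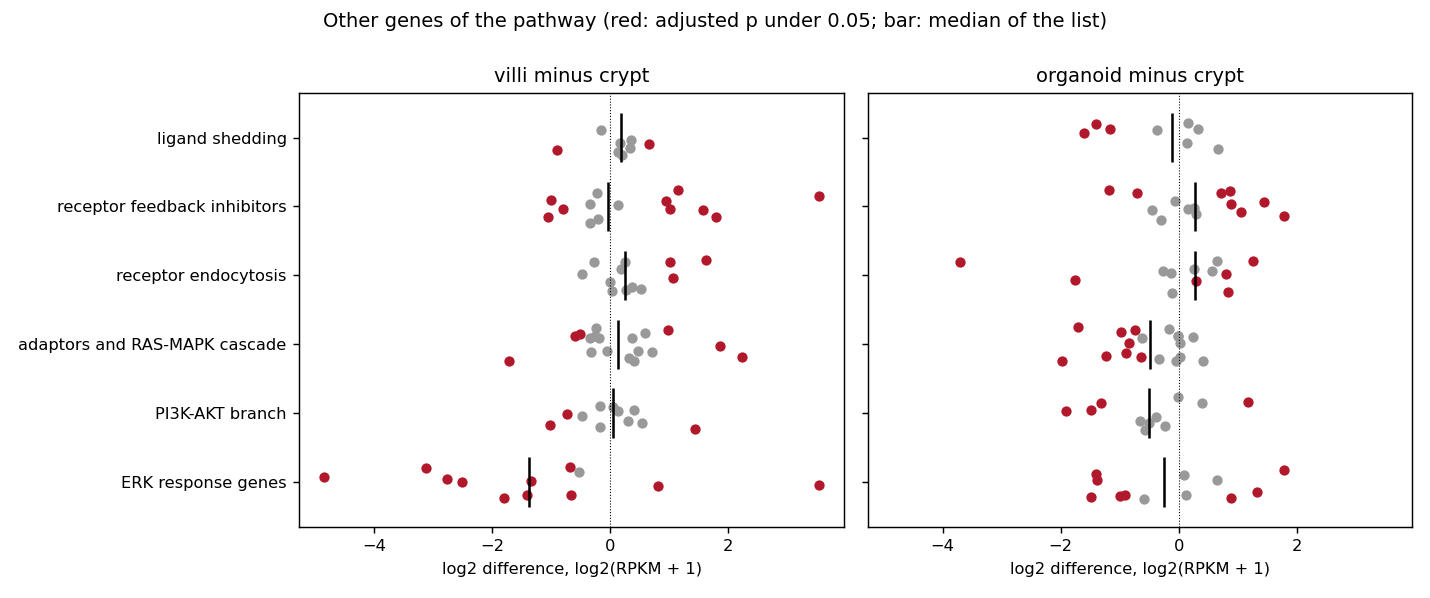
Log2 difference, log2(RPKM + 1) (x axis), of each gene of 6 lists of the pathway (y axis) for villi against crypts and organoids against crypts, red where the adjusted p was under 0.05, with a bar at the median of the list. The ERK response genes have their median at -1.37 in villi, and the RAS-MAPK list has its median at -0.48 in organoids.

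The adaptors and the RAS-MAPK cascade had calls in 1 direction in organoids against crypts, at a total rate near that of all genes (47.4%). Of 18 genes, 8 were lower and none higher in organoids than in crypts, where 24% of all genes were lower and 23.3% higher, with a median of -0.48 beside 0.003 over all genes. Map2k2, a kinase of ERK, ranged from 11.9 to 13.6 RPKM in organoids and from 43.7 to 75.0 in crypts (-1.97, SE 0.26, adjusted p = 9.37e-05), and the adaptors Grb2 (-1.70) and Shc1 (-1.22) were also lower. Villi differed from crypts in 3 higher and 3 lower genes, beside 20.3% and 32.5% of all genes, with 5 and 3 under the replicate block. These were led by Ksr1, a scaffold of the cascade (2.24), Map2k1 (1.87) and the RAS inhibitor Rasa1 (-1.72). Against villi, organoids had 2 higher and 9 lower, beside 36% and 25.6% of all genes, with Ksr1 at -3.23.

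Of 11 genes of the PI3K-AKT branch, 1 was higher and 3 were lower in organoids than in crypts, where 23.3% of all genes were higher and 24% lower, with a median of -0.51 beside 0.003, and 5 were lower with the replicate block. Akt1 ranged from 12.5 to 20.8 RPKM in organoids, from 50.2 to 83.8 in crypts and from 27.6 to 33.0 in villi, and was lower in organoids (-1.91, SE 0.26, adjusted p = 0.000107) and in villi (-1.02, SE 0.26, adjusted p = 0.00496) than in crypts. Pik3r2, a regulatory subunit of PI3K, was lower in organoids (-1.48) and higher in villi (1.44).

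Of 12 genes of receptor endocytosis, 3 were higher and none lower in villi than in crypts, where 20.3% of all genes were higher and 32.5% lower, with a median of 0.26 beside -0.19: the ubiquitin ligase Cblc (1.02) and the endosomal GTPases Rab5a (1.07) and Rab7 (1.62). In organoids against crypts 4 were higher and 2 lower, beside 23.3% and 24% of all genes, with a median of 0.28 beside 0.003. Epn1, an adaptor of clathrin-coated pits, ranged from 10.1 to 13.5 RPKM in organoids and from 122 to 228 in crypts (-3.70, SE 0.26, adjusted p = 2.93e-06), and Hgs, which sorts ubiquitinated receptors, was at -1.76. No gene of any of these lists was called between origins over all tissues.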

How the data were processed

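Poly(A) RNA of 12 libraries was sequenced as 50-bp SOLiD reads per the labels' protocols and aligned with BWA to mm9 per the submitters' processing notes. The labels and headers are silent on versions, gene models, the rule of counting, strand, and whether coordinates start from 0 or 1 (not given in the sources used here), so reads from overlapping or antisense genes cannot be told apart. The authors deposited RPKM values, 1 per transcript, per the file headers. The members and gene lists were chosen with earlier results of these data known.

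RPKM were whole multiples of 1 read for at least 99.9468% of values (within 0.02 of a read), which implied 5268480 to 18591819 reads per library, 2332849 to 10935217 of them in genes. The longest transcript per symbol was kept. Differences were fitted with limma 3.58.1 in R 4.3.3, on log2(RPKM + 1) with a trended prior variance, a scale that understates changes of low genes. The fit over 12 libraries had tissue and origin as terms, the crypt fit had origin, and the test of whether the ileum-duodenum difference varies by tissue used 9 group means. Genes entered a test with the RPKM that 10 reads give at the median depth in 3 libraries (2 for crypts, 1 for group means) and 15 reads in total. On simulated data over the 11825 genes of villi against crypts, 85% of log2 changes of 1 and 100% of changes of 2 were recovered, with 3.65% of calls false. For the crypt comparison of 11123 genes these were 27%, 99% and 8.03%. The simulated counts were independent between libraries at a fixed dispersion. Few genes were changed, and they were drawn from genes with many reads. The rates therefore do not carry over to genes with few reads, such as Ereg and Btc in crypts. Nor do they cover crypt libraries that differ together by replicate number.

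Crypt replicate numbers were checked for pairing. The difference of library 2 from library 1 correlated between origins over 11121 genes. The correlation was 0.42 (duodenum and jejunum), 0.51 (duodenum and ileum) and 0.79 (jejunum and ileum). The numbers were therefore treated as pairs in an alternative fit, the replicate block. The main fits had no such block, so their p-values do not take the pairing into account. The pairing comes from the data and the shared number in the titles. Alternatives covered the pseudocount, filter, scaling, limma-voom on recovered reads, the replicate block, the choice of transcript, and leaving out libraries. All 10 members were described by level, but the test result was not printed for every member in every comparison. Between origins, and for origin differences between tissues, only some members were named. Of each pathway list, up to 3 genes per comparison with the smallest adjusted p past the threshold were eligible to be named, and for each member the 2 genes with the most alike pattern.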

Additional observations from a re-analysis of the deposited data

How the results depend on the processing

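Over 22 alternatives, calls were kept for Tgfa, Hbegf, Erbb3 and Lrig1 in villi against crypts, for Btc, Hbegf and Erbb2 in organoids against crypts, and for Tgfa, Areg, Btc, Erbb2, Erbb3 and Lrig1 in organoids against villi. In villi against crypts Ereg was past the threshold in 13 of 22 (adjusted p 0.00965 to 0.347), Areg in 8 (0.011 to 0.321) and Erbb2 in 4 (0.00426 to 0.516). In the ileum against the duodenum the count of members called rose from 0 to 1, Ereg, with limma-voom, with the replicate block and with crypt replicate 2 only, and was 0 to 1 when libraries were left out. Signs turned for small values. Egfr was at 0.13 (median-ratio scaling) and 0.20 (quantile normalisation) in villi against crypts, and at -0.066 and -0.074 in organoids against villi. In organoids against crypts limma-voom gave Egfr -0.17 and Lrig1 -0.12, and crypt replicate 1 alone gave Tgfa 0.19, Egfr -0.014 and Lrig1 -0.059. There, leaving out libraries gave -0.27 to 0.086 for Tgfa, -0.079 to 0.26 for Egfr, -0.40 to 0.027 for Erbb3 and -0.097 to 0.36 for Lrig1. In the ileum against the duodenum Btc was at -0.012 (median-ratio scaling), -0.062 (quantile normalisation) and -0.11 (crypt replicate 2 only), and Lrig1 at -0.13 (crypt replicate 2 only), with ranges of -0.089 to 0.19 for Btc and -0.11 to 0.42 for Lrig1 when libraries were left out. For Ereg, the difference between villi and crypts in the ileum-duodenum difference was -0.15 with limma-voom. The cause was not tested.

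Over all genes, the replicate block raised the calls in the ileum against the duodenum from 72 to 302 (131 with limma-voom, 113 with a pseudocount of 0.1, 17 without a filter) and in crypts from 4 to 37. Beside Ereg there, the block turned Areg and Erbb2 into calls in villi against crypts, and it changed no other member's call in the comparisons reported. limma-voom called 7066 genes in villi against crypts (1842 higher, 5224 lower) and 5962 in organoids against crypts (2170 higher, 3792 lower). By limma on log2(RPKM + 1), the count in organoids against crypts fell from 5603 to 3563 without the ileal organoids. Without a filter 362 and 497 genes were called where 0 were in the differences between tissues of the ileum-duodenum difference. There, leaving out the duodenal or ileal library of the tissue being compared with crypts could not be fitted. Depth limits Egf, Ereg and Btc in crypts, where a value rests on 0 to 68 reads.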

Other observations

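Other marker lists also differed in level between preparations and are given as values. The 4 measured goblet cell markers summed to 14876 to 34201 RPKM in organoids, 3958 to 16704 in crypts and 4996.5 to 10600.5 in villi. Against villi, Agr2 and Spink4 were higher in all organoid libraries and Tff3 overlapped. Clca3 was lower, at 42.6 to 55.3 RPKM in organoids and 104 to 365 in villi. The 6 enteroendocrine cell markers summed to 872 to 2398 RPKM in organoids, 130 to 373 in crypts and 328 to 565 in villi. Chgb, Gcg, Cck and Ghrl were higher in all organoid libraries than in all villus libraries. Chga (15.1 to 21.5 RPKM in organoids, 28.1 to 49.2 in villi) and Sct (34.3 to 61.5 and 194 to 391) were lower. The 4 measured proliferation markers summed to 152 to 182 RPKM in organoids, 69.2 to 165 in crypts and 18.7 to 22.3 in villi. Of these, Pcna was higher in organoids (110 to 145 RPKM) than in crypts (20.0 to 86.4). Mcm2 was lower in organoids (7.44 to 11.2 RPKM) than in crypts (20.1 to 33.1), and Top2a and Ccnb1 overlapped. The 8 measured Paneth cell markers summed to 40265 to 92534 RPKM in organoids, 6220 to 131935 in crypts and 189.8 to 2330.4 in villi.

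Tgfa and Erbb3, both highest in villi, had a Pearson correlation of 0.94 over the 9 means of tissue and origin, and Btc and Erbb2 had one of -0.94. Lrig1 had correlations of -0.86 with Erbb3 and -0.80 with Tgfa. These are descriptions over means that share tissue, origin and depth.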
